A study of Mus musculus with 4 samples.

Results

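The window examined was 15 Mb of mouse chromosome 10, from 105 to 120 Mb of the assembly mm10. In it, part of the DNase-seq peaks of 3T3-L1 cells lay packed in a few stretches of strong peaks, often with abrupt ends. The longest of these stretches spanned the gene of the p53 antagonist Mdm2. The stretches were chosen by their peak count and peak score, so these measures are given as a description, with no test. In each peak list a 10 kb step was called raised when it held at least as many peaks as the 99th percentile of all steps of chromosomes 1 to 19 and X, which came to 9 peaks in biosample 1 and 4 in biosample 2, and when the median score percentile of its peaks was at least 75. A segment was a run of at least 3 steps raised in both lists, with up to 2 other steps bridged. This rule gave 3 segments in the window, of 4 on all chromosomes. They held 402 of the 2492 window peaks of biosample 1 and 294 of the 872 of biosample 2, from lists of 298793 and 97430 peaks.

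3T3-L1 is an immortalized line of mouse embryo fibroblasts, used as a model of fat cell formation, and the labels assign it to strain C57BL/6J, with age and sex not given and no treatment named. The 4 libraries came from 2 biosamples, and each deposited peak or hotspot list was made from both libraries of a biosample. Whether the biosamples were separate cultures is not stated, and differences between them may be technical. Of 10 fibroblast and preadipocyte marker genes, all 10 had a promoter peak in both lists, against 1 of 6 mature adipocyte genes, 1 of 4 blood genes, 0 of 4 epithelial genes and 2 of 4 endothelial genes. Over all 21646 protein-coding genes the share was 52.3%.

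DNase I cuts DNA where nucleosomes are displaced, mostly at promoters, enhancers and insulators, so that in most of the genome a peak is a short site standing alone in closed chromatin. A hotspot is a wider region in which cleavage exceeds the local background. Mdm2 is the ubiquitin ligase that marks p53 for degradation, and p53 in turn activates Mdm2 from a second promoter in the first intron of the gene. Mdm2 was first found as a gene amplified on double minute chromosomes of a mouse 3T3 subline. The number of cuts at a site depends on both the accessibility of each DNA copy and the number of copies in the cells, and as the lists hold no measure of copies, these cannot be told apart here.

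For each stretch the strongest peak shared by both lists outside annotated untranslated regions is printed below. The reason is that segment peaks as a set differed in sequence from strong peaks elsewhere. Single peaks need not show this, and those of segment 1 and the Mdm2 promoter region each hold an AP-1 match. The sequences are the plus strand of GRCm38.p6, which has the chromosome sequences of mm10, at the biosample 1 peak. Capitals mark matches on either strand to AP-1 (TGACTCA or TGAGTCA), TEAD (CATTCC and then A or T), RUNX (TGTGGTT and then A or T), CTCF or the p53 half-site.
Segment 1, intergenic, chr10:107231696-107231845: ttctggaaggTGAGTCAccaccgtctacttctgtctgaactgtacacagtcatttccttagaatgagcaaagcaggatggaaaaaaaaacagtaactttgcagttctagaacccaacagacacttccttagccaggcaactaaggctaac
Segment 2, Cpsf6 intron, chr10:117378736-117378885: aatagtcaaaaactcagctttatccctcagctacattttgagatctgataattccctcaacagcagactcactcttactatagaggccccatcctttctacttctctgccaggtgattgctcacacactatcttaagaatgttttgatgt
Between segments 2 and 3, intergenic, chr10:117547456-117547605: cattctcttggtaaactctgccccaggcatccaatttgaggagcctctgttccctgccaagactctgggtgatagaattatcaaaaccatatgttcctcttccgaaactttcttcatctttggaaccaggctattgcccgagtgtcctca
Segment 3, intergenic, chr10:117721776-117721925: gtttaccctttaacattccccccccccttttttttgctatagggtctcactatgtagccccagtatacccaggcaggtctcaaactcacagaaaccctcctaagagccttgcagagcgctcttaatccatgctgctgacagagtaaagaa
Mdm2 promoter region, chr10:117710036-117710185: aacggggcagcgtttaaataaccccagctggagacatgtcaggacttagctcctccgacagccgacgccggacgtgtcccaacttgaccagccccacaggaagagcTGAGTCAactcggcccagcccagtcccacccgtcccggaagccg
Lyz block, Lyz2 intron, chr10:117281996-117282145: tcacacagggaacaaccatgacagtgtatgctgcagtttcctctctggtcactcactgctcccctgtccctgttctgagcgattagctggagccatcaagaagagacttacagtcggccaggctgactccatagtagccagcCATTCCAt
Distal block, intergenic, chr10:118614276-118614425: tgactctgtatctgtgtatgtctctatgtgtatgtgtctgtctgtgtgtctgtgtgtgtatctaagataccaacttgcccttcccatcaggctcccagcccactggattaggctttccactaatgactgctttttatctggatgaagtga

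The peak score is a whole number that reached 150 in both lists, and its percentile is its rank within the list, with 100 the strongest. Segment 1 ran from 107.21 to 107.26 Mb. It held 86 peaks in biosample 1 and 91 in biosample 2, and hotspots covered 81.6% and 81.4% of it. Its peaks had median scores of 146 and 88, which are median percentiles of 99.3 and 97.4, and the lowest peak stood at percentile 65.7 in biosample 1 and 69.1 in biosample 2. All 5 steps of segment 1 were raised in both lists, with 11 to 23 peaks a step in each list. Segment 1 thus had nearly the same peak number and hotspot cover in both lists, although biosample 1 had the longer list.

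Segment 2 ran from 117.37 to 117.4 Mb and held 59 and 46 peaks, with hotspots over 80.0% and 67.7% of it and median percentiles of 98.97 and 94.7. It was not called with 20 kb steps or with a median percentile of at least 90. Segment 3 ran from 117.67 to 117.8 Mb and held 257 and 157 peaks, with hotspots over 86.1% and 42.8% and median percentiles of 99.7 and 98.9. Segment 3 had a step at 117.75 Mb with 24 peaks in biosample 1 and 0 in biosample 2, which the rule bridged. In biosample 1 segments 2 and 3 belonged to a single raised run of 430 kb with 877 peaks, in which 42 of 43 steps were raised and hotspots covered 88.7%. Steps of this run held a median of 21 peaks, from 8 to 28. Its lowest peak stood at percentile 2.22, and 94.2% of its peaks were in the top decile of the list by score.

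**Figure D1:**
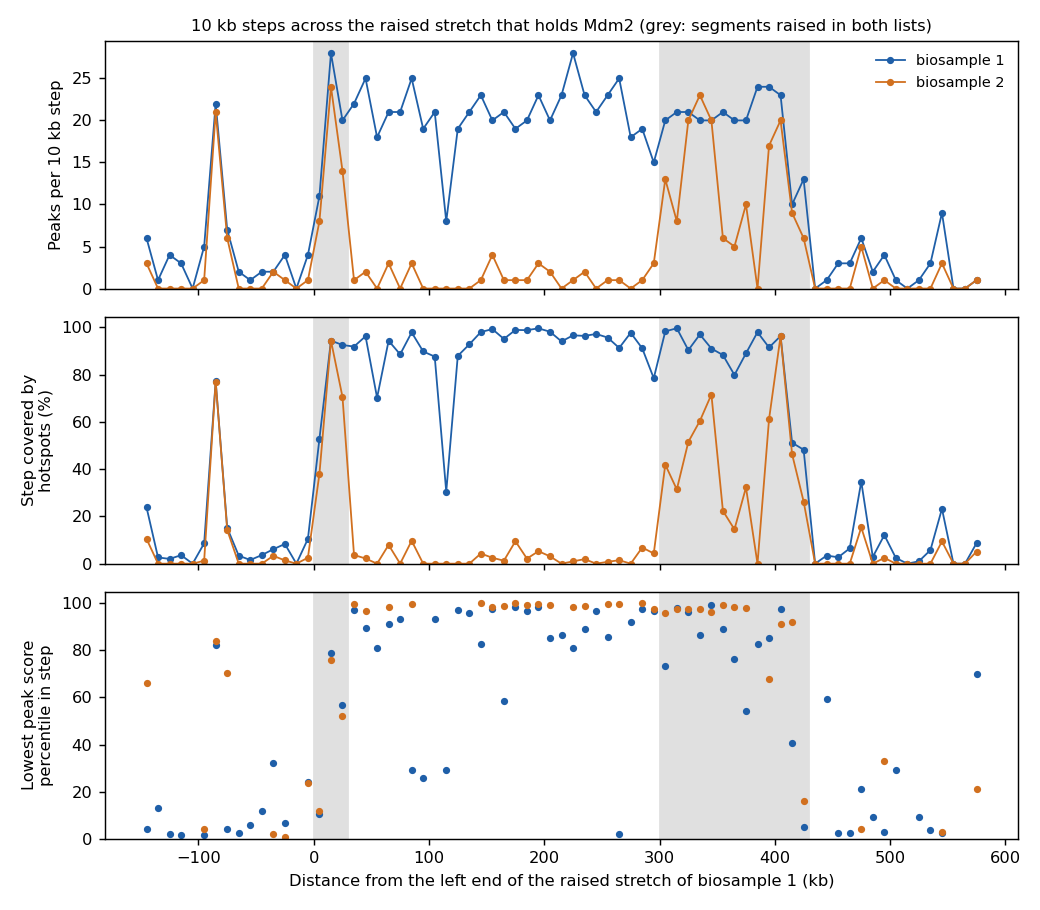
Peaks, hotspot-covered share and lowest peak score percentile in each 10 kb step against the distance in kb from the left end of the 430 kb run of biosample 1, with 1 point for each step and list. The points of biosample 1 stay between 8 and 28 peaks a step along the whole run, while those of biosample 2 fall to between 0 and 4 peaks between the grey segments.

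The 270 kb between segments 2 and 3 was the place where the lists differed most within the window. Biosample 1 had 561 peaks there, and hotspots covered 90.9%. Biosample 2 had 31 peaks, hotspots covered 2.51%, and 10 of 27 steps held no peak. These 31 peaks were all strong, with scores from 86 to 141 (median 104) and a lowest percentile of 96.9. Of the 561 peaks of biosample 1, 27 met a peak of biosample 2. Their scores ran from 143 to 150 with a median of 149, against a median of 146 for the others. The depth of the lists is unknown, and its part in this difference was not tested.

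Raised steps were a small share of the genome. In biosample 1 they were 599 of 263389 steps, or 0.227%, against 49 of the 1500 window steps (3.27%). In biosample 2 they were 0.273% of all steps and 1.67% of the window, and in both lists together 0.0721% and 1.53%. Outside the runs the window had 1.05 and 0.377 peaks a step, close to the genome means of 1.13 and 0.369, and median percentiles of 42.0 and 37.7. Of 85 steps in the genome of biosample 1 with at least 90% hotspot cover, 32 lay in the window, and in biosample 2 the counts were 5 and 4. Steps with at least 15 peaks numbered 371 in biosample 1 and 29 in biosample 2. Of these, 69 and 12 had no peak under percentile 50, and 41 and 12 of those lay in the window. The stretches were chosen by peak count and score, so these counts are no separate finding.

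Close to the thresholds, the outermost steps of the 430 kb run had the lowest median percentiles of biosample 1 among the raised steps kept. The step at 117.37 Mb held 11 and 8 peaks with a median percentile of 75.1 in biosample 1, and the step at 117.79 Mb held 13 and 6 with 76.4. Just outside the rule lay the step at 117.29 Mb, with 7 and 6 peaks, and that at 118.62 Mb, with 8 and 9, each beside a step with 18 to 22 peaks. These 2 short stretches were therefore raised but too short to count as segments.

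To place the ends without fixed steps, peaks at percentile 75 or higher were joined when no more than 10 kb apart, and chains of at least 20 were kept as dense blocks, a definition chosen after the data were seen. This gave 4 blocks in the window, made of 4 chains in biosample 1 and 6 in biosample 2. The Lin7a-side block ran from 107213056 to 107256745 in biosample 1 and from 107213056 to 107256725 in biosample 2, so its left end was the same base and its right end differed by 20 bp. The Lyz block ran from 117281356 to 117291405, and both of its ends differed by 80 bp between the lists. The Mdm2 block ran from 117375836 to 117792985, or 417 kb, and its left end differed by 1640 bp and its right end by 80 bp. The distal block ran from 118611036 to 118623165, and its ends differed by 100 and 20 bp. The left ends of these blocks all differed by multiples of 20 bp, as did the right ends, so finer differences could not be seen. Within biosample 2 the Mdm2 block was made of 3 chains.

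A block ends by definition at its last peak of percentile 75 or higher, so the next peak outside is weaker at every end, and the size of the step is a description. At the left end of the Lin7a-side block of biosample 1 the 5 peaks inside stood at percentile 87.7 or higher, and the 5 outside at 32.2 or lower, with the nearest of them 11.8 kb away. The next peak at percentile 75 or higher to the left was 437 kb away. In biosample 2 the 5 inside peaks stood at percentile 82.6 or higher, and the nearest outside peak, with a score of 8, was 39.0 kb away. The 50 kb outside this end held 4 and 1 peaks, against 86 and 91 in the block, whose length is 43.7 kb.

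Other ends were less steep. At the right end of the Lyz block in biosample 2 the last peak inside stood at percentile 78.1 and the next at 70.3, overlapping it. At the left end of the Mdm2 block in biosample 2 the first outside peak stood at 74.9. In biosample 1 the nearest peaks outside the Mdm2 block were 0.61 kb to the left (score 49) and 0.55 kb to the right (score 73). The 50 kb inside held 116 peaks at the left end and 100 at the right, against 15 and 13 in the 50 kb outside, and the hotspot cover fell from 94.2% to 7.54% at the left end and from 85.4% to 6.20% at the right. In biosample 2 the same 50 kb held 46 and 60 peaks inside against 7 and 1 outside. At all 8 ends and in both lists the 50 kb outside held 1 to 15 peaks.

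**Figure D2:**
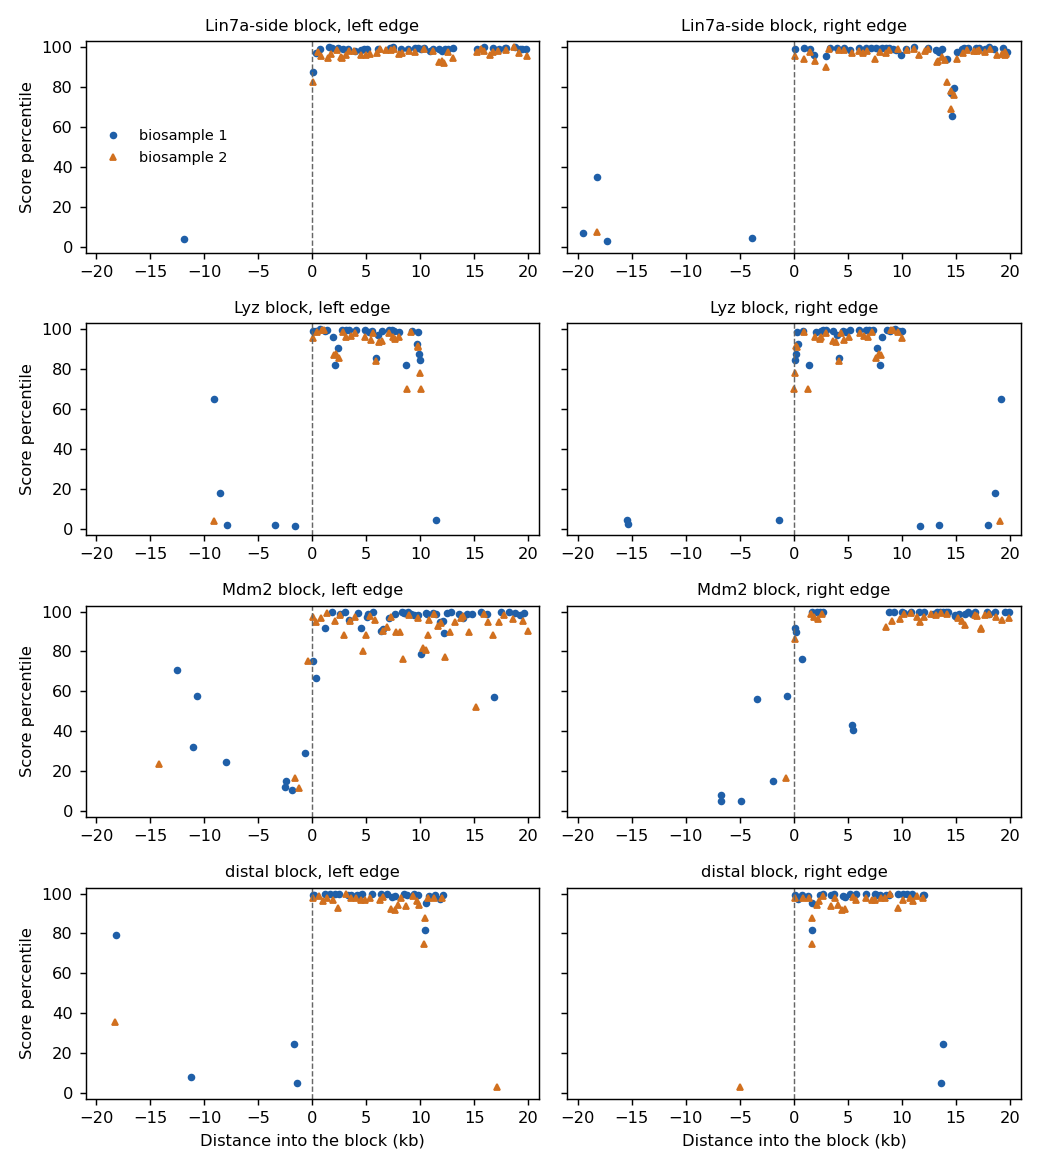
Score percentile of single peaks against the distance in kb from each end of the 4 dense blocks, with positive distances inside the block and circles and triangles for biosamples 1 and 2. Inside points lie mostly above 80 and the first outside points mostly below 40 (the Lyz and distal blocks are about 10 and 12 kb long, so points beyond that distance are past the other end).

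The hotspots inside the blocks often had the same first and last base in both lists. This held for 12 of 14 hotspots of the Lin7a-side block, 18 of 19 of the Lyz block and 8 of 10 of the distal block. In the Mdm2 block it held for 50 of 332 hotspots of biosample 1. In the rest of the window it held for 0 of 1265 hotspots of biosample 1, and among all other hotspots of the genome for 759 of 246656, or 0.308%. The widest such hotspot, on the Lin7a side, measured 9233 bp in both lists. All 375 block hotspots of biosample 1 reached the highest −log10 q value of the list, as did 49.3% of its other hotspots. In biosample 2, 153 of 209 block hotspots did (73.2%), with 110 of 166 in the Mdm2 block, against 42.7% of the others.

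The gaps between block hotspots fell on sequence that is not unique in the genome. In the 4 blocks of biosample 1, 76.8% of the 32-base words between hotspots occurred at another place on chromosomes 1 to 19 or X, against 6.83% of those within hotspots. Of the bases between hotspots 73.4% were marked as repeats in the reference, against 28.4% within. In the distal block the words found elsewhere made up 95.03% between hotspots and 5.29% within, and on the Lin7a side 88.0% and 3.58%. Beside the Mdm2 block no such contrast appeared, as words were found elsewhere in 4.98% of cases between hotspots and 5.94% within them in the 50 kb to the left, and in 4.14% and 3.16% in the 50 kb to the right. The read length and the treatment of reads with several matches are not given in the sources used here, and their part in the gaps was not tested. In the Mdm2 block of biosample 2, where hotspots covered 19.5%, the words between hotspots were repeated in 15.1%, so most of the uncovered sequence in that list was unique.

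**Figure D3:**
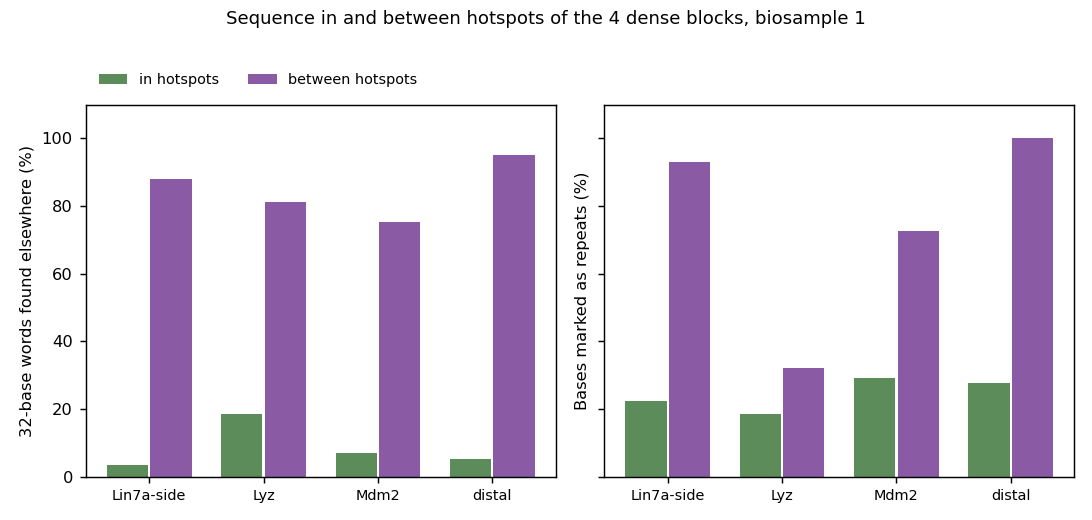
Share of 32-base words found elsewhere in the genome, and share of bases marked as repeats, in percent, for the sequence in hotspots and between hotspots of each dense block of biosample 1. In all 4 blocks both shares are higher between hotspots, with words at 75.4% to 95.03% against 3.58% to 18.7%.

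The peaks of the segments differed from other strong peaks in what lay under them, which the rule had not used. AP-1, the Fos and Jun dimer found at many enhancers of fibroblasts, had a match in 17 of 402 segment peaks of biosample 1, or 4.23% (95% Wilson interval 2.66 to 6.67), and in 15 of 294 of biosample 2, or 5.10% (3.12 to 8.25). Other peaks in the top decile by score had one in 25.0% (24.5 to 25.5) and 23.5% (22.7 to 24.4), and the rest of the window in 20.2% (18.2 to 22.3) and 22.4% (19.0 to 26.3). Even the weakest decile of other peaks had one in 11.9% and 17.2%. The intervals of the segments lay below all of these. The other top-decile peaks of the window alone had a match in 30.1% (21.3 to 40.7) of 83 in biosample 1 and in 18.5% (8.18 to 36.7) of 27 in biosample 2, where the interval meets that of the segments. Tiles of 150 bases of the window outside hotspots held a match in 2.01% (1.93 to 2.11). Intervals cover counting error only, and peaks of a segment are neighbours on the same sequence.

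Leaving out peaks within 1000 bp of a coding start site, the AP-1 shares were 4.18% in segment peaks and 37.0% in other top-decile peaks of biosample 1, and 5.07% and 39.9% in biosample 2. Matches to CTCF, a protein of insulators and loop ends, were in 0 of 402 and 0 of 294 segment peaks, which with 3 counts as the limit allows up to 0.746% and 1.02% (Wilson upper limits 0.947% and 1.29%). Other top-decile peaks had one in 2.46% and 1.97%, and all other peaks in 3.69% and 7.39%. Tiles of the window outside hotspots had one in 0.0975%, which lies within the limits of the segments. The other top-decile peaks of the same window also had none, in 0 of 83 and 0 of 27. TEAD, the DNA-binding partner of the Hippo effector YAP, had a match in 5.72% (3.84 to 8.44) and 6.46% (4.18 to 9.87) of segment peaks, against 10.9% and 10.3% of other top-decile peaks and 5.54% of tiles. RUNX matches were in 2.24% and 2.04%, against 4.34% and 4.60%, and the interval of the segments reached 4.38% in biosample 2. Tiles had a RUNX match in 1.80%. The p53 half-site was in 5.97% (4.04 to 8.73) and 6.46% (4.18 to 9.87), with 4.64% and 4.57% in other top-decile peaks, whose values lay within those intervals. Tiles held it in 4.12%.

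Between segments 2 and 3 the 2 lists gave different shares. The 561 peaks of biosample 1 had an AP-1 match in 3.03% (1.90 to 4.80), while 5 of the 31 peaks of biosample 2, or 16.1% (7.09 to 32.6), had one. CTCF matches were in 3 of 561 and 2 of 31. Both intervals of biosample 2 are wide, since they rest on 31 peaks.

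**Figure D4:**
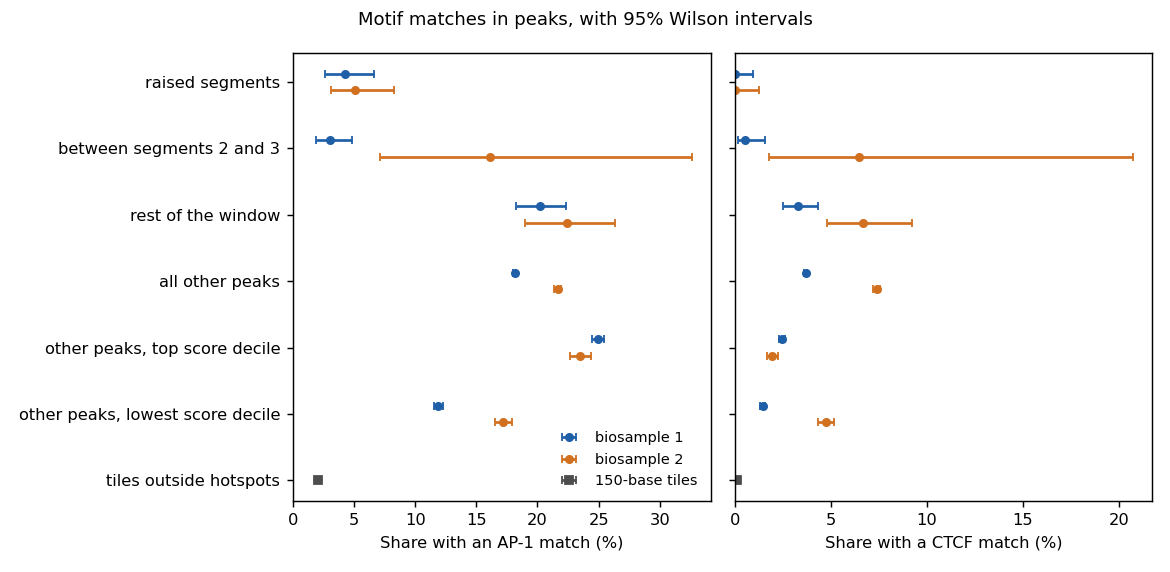
Share of peaks in percent with an AP-1 match and with a CTCF match in each set of peaks, with 95% Wilson intervals, and in 150-base tiles of the window outside hotspots. The segment peaks, at 4.23% and 5.10% for AP-1, lie nearer to the tiles at 2.01% than to the other top-decile peaks at 25.0% and 23.5%.

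Promoters made up little of the segments. Of the segment peaks 4.73% and 6.12% lay within 1000 bp of a coding start site, against 37.2% and 45.9% of other top-decile peaks. The share was 7.86% and 14.3% in the rest of the window, and 3.92% and 9.63% in the weakest decile of other peaks. The mean GC content was 45.4% and 43.8% in segment peaks, 54.7% and 54.8% in other top-decile peaks, and 44.7% in all 150-base tiles of the blocks. It was 46.4% and 47.4% in the rest of the window, and 45.1% and 46.2% in the weakest decile. At least 50% of the peak was marked as repeats in 1.82% and 1.20% of other top-decile peaks. The share was 11.6% and 9.29% in the rest of the window, and 17.9% and 12.2% in the weakest decile. In all 3 measures the segment peaks lay nearer to this weakest decile than to the top decile. Of the segment peaks 22.9% (19.1 to 27.2) and 16.0% (12.2 to 20.6) were so marked over at least 50% of the peak. The shared peak of segment 3 printed above is an example, with 58.7% of its bases so marked.

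Segment peaks met a peak of the other list in 57.5% of cases in biosample 1 and 79.6% in biosample 2. In the rest of the window, here 1529 and 547 peaks with those of the Lyz and distal blocks included, the shares were 31.9% and 89.0%. Peaks lie far denser in the segments, and dense peaks meet more often by position alone. The share that density alone would give was not computed, so these values do not measure agreement between the lists. Every segment peak of biosample 2 met a hotspot of biosample 1, and 68.9% of those of biosample 1 met a hotspot of biosample 2. Part of the segment peaks thus sat within a hotspot of the other list without meeting a peak there.

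The blocks were overlapped by 7 protein-coding genes, 6 of them with a start site inside. Of the 7 genes, 5 lay in the Mdm2 block and 2 in the Lyz block, while the Lin7a-side and distal blocks held no annotated gene. Of the 77 coding genes of the window, 39 had a promoter peak in both lists (50.6%, against the background of 52.3%), including 5 of the 6 with a start site in a block. The peaks at these genes belong to the chosen stretches, and their scores are a description.

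Mdm2 (chr10:117688875-117710758, minus strand) lay wholly inside its block. It held 45 peaks in biosample 1 and 47 in biosample 2, or 20.6 and 21.5 per 10 kb, with median percentiles of 99.7 and 99.3. Biosample 1 had 2 promoter peaks, both at the top score of 150, and biosample 2 had 3, with scores of 145, 141 and 134. Only 1 position was shared, the peak printed above, centred 647 bp inside the gene from the start site at 117710758. It lies in the first intron of the coding transcripts, which holds the p53-driven promoter, and in an exon of a non-coding transcript, and had an AP-1 match and 11 CpG. No p53 half-site of the strict form searched is in these letters. That form allows no mismatch, so sites that depart from it stay unmarked, and its absence says nothing of p53 binding there.

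Cpm, a membrane carboxypeptidase (chr10:117629500-117687352), lay at the junction of the 270 kb stretch and segment 3. It held 114 peaks in biosample 1 and 22 in biosample 2, and its promoter had 4 peaks with scores of 143 to 147 in biosample 1 and 0 in biosample 2. It was the only coding gene with a start site in a block and a promoter peak in just 1 list.

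Slc35e3, of a family of nucleotide sugar transporters, had 4 promoter peaks in each list, with scores of 148 to 150 and 104 to 143. Nup107, a scaffold protein of the nuclear pore, held 85 and 50 peaks along its body. Its most upstream start site, at 117792705, lay just inside the right end of the Mdm2 block, and its promoter peaks were weaker, with 4 from 73 to 127 and 2 from 18 to 63.

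Cpsf6, a factor of messenger RNA 3′ end formation, crossed the left end of the block with 11.8% of its length inside, its 5′ end. It had 9 promoter peaks in each list, with scores of 84 to 148 and 16 to 94. No coding gene of the window outside the blocks had more than 6 in either list. Its 6 start sites were spread, with 5 inside the block. The nearest coding gene beyond the right end was Rap1b, a small GTPase, 20.9 kb away, with top promoter scores of 122 and 42.

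Non-coding genes in the Mdm2 block were 5 lincRNAs, 3 processed pseudogenes and 1 snRNA, and 8 of the 9 lay in the 270 kb where the lists differed.

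The Lyz block held the 5′ end of Lyz2 and 71.2% of Lyz1, a pair of closely related lysozyme genes known from macrophages and Paneth cells. The promoter of Lyz2 had 6 peaks with scores of 138 to 150 in biosample 1 and 5 with scores of 64 to 112 in biosample 2. The promoter of Lyz1 lay past the right end, with 1 peak of score 31 in biosample 1 and 0 in biosample 2. In this block 26.5% of 32-base words occurred elsewhere, so reads may be shared between the 2 copies and their values are uncertain. To the left, the nearest coding gene beyond the block was 9530003J23Rik, 42.7 kb away, with no promoter peak in either list.

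The Lin7a-side block lay 14.9 kb from Lin7a, a scaffold protein of cell junctions, and 89.4 kb from Acss3, a mitochondrial acyl-CoA synthetase, and neither had a promoter peak in either list. The distal block lay 165 kb from Ifng, the interferon gamma gene, whose top promoter scores were 67 and 19, and 232 kb from the kinase gene Dyrk2, with 135 and 47. Strong peaks were thus also dense in stretches with no annotated gene.

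Among 16 genes of the p53 pathway, 14 had a promoter peak in both lists, against 52.3% of all coding genes. They included Trp53 itself, with top scores of 147 and 100, the Mdm2 partner Mdm4 (145 and 85), and the cell cycle inhibitors Cdkn1a (140 and 59) and Cdkn2a (128 and 65). Bbc3, an apoptosis gene, had peaks in biosample 1 alone and Pmaip1 in neither list. Among these 16 genes Mdm2 had the highest top score in both biosamples, at 150 and 145, while the next highest was Trp53 in both. Since Mdm2 lies in the chosen stretch, its rank is no separate finding.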

How the data were processed

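DNase-seq of 3T3-L1 cells was used, from 4 libraries of 2 biosamples. Per the labels, the authors aligned both libraries of a biosample together in mm10, then derived its peak and hotspot lists. No aligner, caller or version is named (not given in the sources used here). Peaks carry a deposited score, a whole number up to 150 of undefined scale, used only as a rank within its list. The deposited hotspot lists give a −log10 q value, capped, so hotspots were not ranked, and only their positions and whether they reached the cap were used. Read depth is unknown.

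Peaks were placed in 10 kb steps by midpoint, and segments, dense blocks and their peaks were described without tests. Genes came from GENCODE M21, with promoters within 1000 bp of a coding start site, and sequence from GRCm38.p6. Words of 32 bases were counted on chromosomes 1 to 19 and X. Intervals are 95% Wilson. Named genes are all coding genes overlapping a raised segment and those nearest to each end. Genes of the Lyz and distal blocks were added after their values were seen. Printed sequences are, for each stretch, the shared peak with the highest mean percentile over both lists. Peaks that overlap an annotated untranslated region were left out of this choice. Members and gene lists were chosen with earlier results of these data known. The step caller was tested on simulated data. Python 3.11.15 with numpy 2.4.6, pandas 2.3.3 and scipy 1.17.1 was used.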

Additional observations from a re-analysis of the deposited data

How the results depend on the processing

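The 3 segments found in both lists measured 210 kb. Under 13 planned settings (step width and offset, count and percentile thresholds, bridging, the stronger 50% of each list, hotspot cover in place of peak count, and either list alone) the length lay between 170 and 220 kb, except 480 kb with the biosample 1 list alone. The number was 2 to 4, except 5 with 5 kb steps, where the Lyz and distal stretches counted as segments. Segment 2 was lost with 20 kb steps and with a median percentile of at least 90. The dense blocks, a definition added after the data were seen, spanned 481 kb in both lists from end to end, with the 270 kb between segments 2 and 3 included. The chains themselves summed to 206 kb in biosample 2, where the Mdm2 block has 3 chains with gaps between them. The AP-1 share of segment peaks lay below that of other peaks under every comparison run. For CTCF the difference from other top-decile peaks was above 0 in 1 case, the 31 peaks of biosample 2 between segments 2 and 3 (4.49 percentage points higher, from 2 peaks), and below 0 in the others. With at least 50% of the peak required, 38.8% and 53.4% of segment peaks met a peak of the other list. No paired analysis was possible because each list pools the libraries of a biosample and no test was run, and for the same reason no library could be left out.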

Other observations

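Outside the window, 1 run of steps was raised in both lists, on chromosome 2 from 77.94 to 77.99 Mb at Cwc22, a splicing factor gene. In biosample 1 the run there was longer, 160 kb with 267 peaks and hotspots over 76.2%, and its steps had a median percentile of 90.2, against 99.4 in the 430 kb run on chromosome 10. In biosample 2 the same 160 kb held 92 peaks, with hotspots over 23.2%. A second place, at Frmd8 on chromosome 19, had a run in each list taken alone. In biosample 1 this run had 98 peaks in 60 kb and a median percentile of 83.0. In biosample 2 it had 74 peaks in 70 kb, with hotspots over 39.1% and a median percentile of 58.9. On chromosome 11 each list also had a run at Vamp2 and Per1, from 69.06 to 69.13 Mb in biosample 1 and from 69.01 to 69.1 Mb in biosample 2. Neither place held a run of steps raised in both lists. Chains of strong peaks numbered 51 in biosample 1 and 8 in biosample 2, and the highest median percentile of a chain outside the window was 94.7 in biosample 1, against a lowest value of 98.97 in the window. In biosample 2 these values were 93.7 and 94.7. Peak score was used to choose the stretches, so these differences are a description. By peaks per 10 kb the window did not stand apart, as chains on an unplaced contig had 26.3 in biosample 1 and 13.1 in biosample 2, above the lowest window chains at 19.7 and 12.7.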
